A study of Schmidtea mediterranea with 24 samples.

Results

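Intact planarians were profiled after prolonged RNA interference (RNAi) against nkx1-1, a homeobox transcription factor gene needed for the circular fibres of planarian body-wall muscle. The comparison took every library whose label names 12 feedings, which are 12 of the 24 libraries of the series. In 7 nkx1-1 RNAi animals and 5 control animals of the asexual Schmidtea mediterranea strain CIW4, double-stranded RNA was given in liver at 12 feedings over 9 weeks. The double-stranded RNA of the control animals was made from the nematode gene unc-22 (C. elegans), so feeding and double-stranded RNA were common to all 12. The other 12 libraries of the series, from myoD RNAi animals and their own controls after 10 feedings over 7 weeks, served only for side-by-side values. The labels call each library an individual intact animal, while the extraction text speaks of pooled wounds in tail fragments. They are treated here as single animals, and if that is wrong the spread between libraries is not a spread between animals.

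Planarian body-wall muscle is a layered sheet of circular, diagonal and longitudinal fibres. Besides contracting, its cells express many of the signalling genes that give the body its positional information, and the nkx1-1 product is known from RNAi work to be needed to make and maintain circular fibres. Planarians renew all tissues from dividing stem cells called neoblasts, so weeks of RNAi in uninjured animals act on tissue that is being replaced.

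Polyadenylated RNA was counted on the contigs of a transcript assembly, named with the prefix dd_Smed_v4. No table used here pairs these contigs with gene names, so the level of nkx1-1 itself, the state of the muscle markers and any gene group are not given, and the depth of the knockdown was not checked. Contigs of similar sequence may share reads, so each value belongs to a contig and not to a gene. Of 26563 contigs, 16598 passed the filter on low counts, and they held 99.8% to 99.9% of the counts of each library. Total counts averaged 14532781 ± 2525553 in nkx1-1 RNAi animals (SD, n = 7) and 15965226 ± 1332270 in controls (SD, n = 5). The nkx1-1 RNAi libraries ranged from 9757113 to 18136698 counts and the control libraries from 14174155 to 17509742. Levels below are in CPM, counts per 1e6 counts of a library, scaled between libraries by edgeR's TMM factors and not divided by contig length.

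A pair of libraries stood apart, and results are given with and without them. The first was nkx1-1 RNAi replicate 1, where 6.79% of all counts fell on the contig dd_Smed_v4_4_1_1, which was chosen for description once its values were known. The same contig took 0.0393% to 0.391% in the remaining 6 animals of its group and 0.109% to 0.571% in the 5 controls. In this animal 21 contigs lay at least 2-fold above every other library of the schedule, and together they took 10.2% of its counts, against 0.118% to 0.761% in the remaining animals of its group and 0.207% to 1.09% in controls. In the comparison of groups 0 of these 21 contigs were called by edgeR, DESeq2 or limma voom, where edgeR called 3.87% of all tested contigs. An unadjusted edgeR p under 0.05 was found for 6 of the 21, near the share of 21.1% over all tested contigs. The 21 were chosen for high values in this animal, which widen the spread within its group and make a call unlikely. Neither count therefore tells whether these contigs respond to nkx1-1 RNAi. For dd_Smed_v4_4_1_1 the log2 fold change was 1.72 ± 0.99 (SE; edgeR adjusted p = 0.338) with all 12 libraries and −0.42 ± 0.47 (SE; edgeR adjusted p = 0.667) without the pair.

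The second was control replicate 3, which differed in many contigs rather than a few. It was the highest or the lowest of the 5 controls at 57.9% of the tested contigs, where an even spread over 5 animals gives 40%, and the other controls were so at 27.7% to 41.3%. Here 42 contigs lay at least 2-fold below every other library. By the same count nkx1-1 RNAi replicate 1 was ordinary, being the highest or lowest of its 7 animals at 30.9% of contigs against an even share of 28.6%. The others of its group were so at 17.8% to 35.8%, with replicates 2 (35.2%) and 3 (35.8%) above replicate 1.

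**Figure D1:**
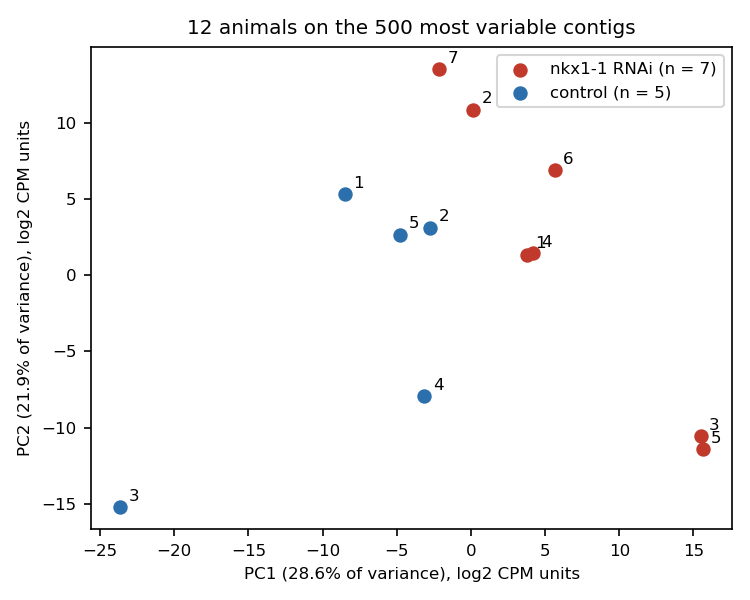
The 12 animals of the 12-feeding schedule on the first and second principal components of log2 CPM over the 500 most variable contigs, with nkx1-1 RNAi animals in red, controls in blue and replicate numbers beside the points. Along the first component, which holds 28.6% of the variance, the nkx1-1 RNAi animals sit between −2.14 and 15.6 and the controls between −23.6 and −2.73, with control replicate 3 farthest left and nkx1-1 RNAi replicates 3 and 5 farthest right.

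In the plot of principal components the groups were ordered along the first axis, but with only a narrow gap between nkx1-1 RNAi replicate 7, at −2.14, and control replicate 2, at −2.73. The second axis, with 21.9% of the variance, spread animals within both groups. It ran from −11.4 to 13.5 among nkx1-1 RNAi animals and from −15.2 to 5.29 among controls. Replicates 3 and 5 of the nkx1-1 RNAi group lay close together at one end of it and replicates 2 and 7 at the other.

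The comparison asked which transcripts differ in intact animals after nkx1-1 is inhibited. With all 12 libraries, 297 contigs (1.79%) were higher and 346 (2.08%) lower after nkx1-1 RNAi, together 3.87% of the 16598 tested (edgeR quasi-likelihood test, Benjamini-Hochberg adjusted p under 0.05). Without the pair that stood apart 436 were higher (2.61%) and 312 lower (1.87%), together 4.47% of 16727 tested. The larger set of falls with all 12 libraries thus became the smaller set without the pair. In both fits 262 contigs were called higher (1.58%) and 251 lower (1.51%), together 3.09% of the 16578 tested in both. The fits share 10 libraries, so calls made in both are not independent of each other. In whole animals fewer cells of a type and less RNA per cell cannot be told apart.

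The fits differed in both directions. Leaving the pair out added 174 contigs to those called higher and removed 35, while it added 61 to those called lower and removed 95. For the 168 added higher contigs that were tested in both fits, the median log2 fold change was 0.32 with all 12 libraries. For all 174 it was 0.40 without the pair, where their median SE was 0.09. The 95 contigs no longer called lower had a median log2 fold change of −0.31 with all 12 libraries and −0.27 without the pair.

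Most changes were small. Among the contigs called in both fits, those higher had a median log2 fold change of 0.49 and those lower a median of −0.36, with all 12 libraries, and over all tested contigs the median was 0.00. Of the 643 contigs called with all 12 libraries, 70 higher and 137 lower ones changed less than 1.25-fold. At least 2-fold changes were seen in 45 higher ones (0.271% of tested contigs) and 7 lower ones (0.0422%), together 0.313%. Without the pair 86 contigs, 0.514% of those tested, changed at least 2-fold. Contigs that were not called were mostly bounded as well. For 15275 of the 15955 uncalled contigs (95.7%) the 95% interval of the fold change lay within 2-fold in either direction, and for 12687 of them (79.5%) within 1.5-fold. The intervals of contigs with few counts can be too narrow, so these shares may be too high.

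**Figure D2:**
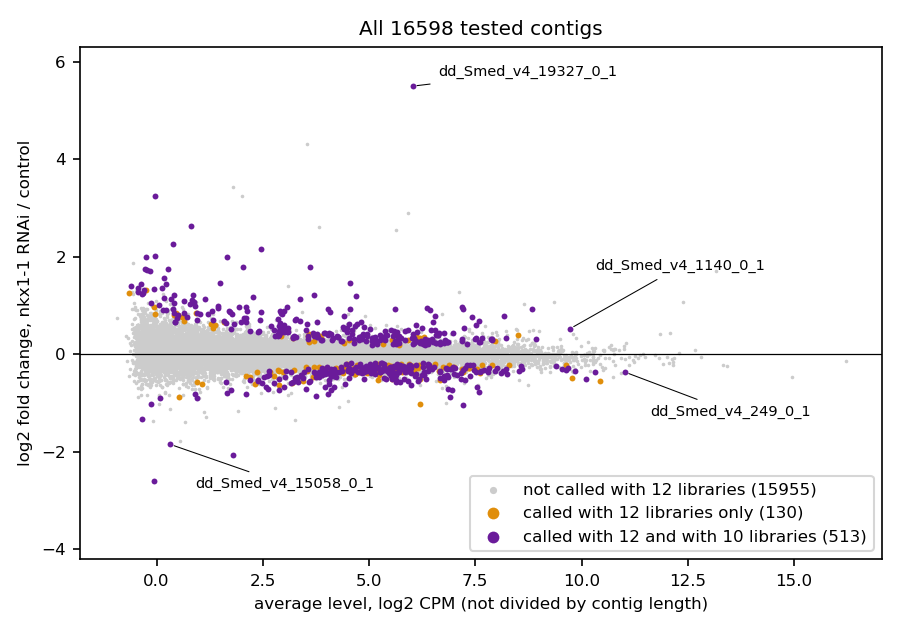
Log2 fold change of nkx1-1 RNAi over control (vertical axis) against average level in log2 CPM (horizontal axis) for each of the 16598 tested contigs. Grey points were not called with 12 libraries, though 229 of them were called with 10 libraries. Orange points (130) were called with 12 libraries only and purple points (513) with 12 and with 10 libraries. Rises prevail at the left among contigs with few counts, and falls prevail at the right with 12 libraries.

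Direction went with the number of counts behind a contig, a split made after the values were seen. The tested contigs were put into 4 bins of equal size by their average CPM. In the bin with the fewest counts, 0.524 to 3.67 CPM, 74 were called higher and 14 lower, 2.12% of that bin. In the next bin 64 were higher and 54 lower (2.84%), and in the third 61 were higher and 113 lower (4.19%). In the bin with the most counts, above 40.3 CPM, 98 were higher and 165 lower (6.34%). The share of falls among called contigs was thus 15.9% in the lowest bin and 62.7% in the highest. Without the pair that stood apart it was 11.4% in the lowest bin and 50% in the highest, where 151 rose and 151 fell. The sizes of called changes ran the other way, with a median of 0.96 on the log2 scale in the lowest bin and 0.32 in the highest. The median SE of a log2 fold change over all contigs was 0.21 in the lowest bin and 0.07 in the highest. Over all contigs of the lowest bin, called or not, the median log2 fold change was 0.07, and it was 0.10 without the pair. The low-count filter asked for a minimum level in as many libraries as the smaller group, the controls, holds. A contig present only after nkx1-1 RNAi could thus pass without some of its animals, while one present only in controls needed all of them. What this adds to the rises in the lowest bin was not tested.

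Added up, the contigs called higher in both fits took 13920 ± 879 CPM in nkx1-1 RNAi animals (SD, n = 7) and 10202 ± 253 CPM in controls (SD, n = 5). Those called lower in both fits took 20470 ± 1370 CPM in nkx1-1 RNAi animals (SD, n = 7) and 26440 ± 647 CPM in controls (SD, n = 5). These sums describe the size of the called sets, since the same values chose them. The lowest nkx1-1 RNAi animal for the higher contigs was replicate 1, at 12064 CPM, and the other 6 lay between 13816 and 14844 CPM.

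The contigs named were fixed by a rule of size and of counts: in each direction the contig with the largest change among those whose groups did not overlap, and the one with the most counts. Both were taken from the contigs called in both fits with a mean of at least 1 CPM. The largest rise was that of dd_Smed_v4_19327_0_1. Its levels in nkx1-1 RNAi animals ran from 74.9 CPM over a median of 91.2 to 175 CPM, while the controls had 2.25, 2.18, 2.88, 2.36 and 2.53 CPM. Every nkx1-1 RNAi animal lay far above every control, and the spread among nkx1-1 RNAi animals was wide, with replicate 1 the highest and replicate 2 the lowest. The mean was 110 ± 36.0 CPM after nkx1-1 RNAi (SD, n = 7) and 2.44 ± 0.279 CPM in controls (SD, n = 5), a 45.2-fold increase (log2 fold change 5.50 ± 0.25 SE; edgeR adjusted p = 3.21e-09). Without the pair the log2 fold change was 5.42 ± 0.21 (SE; edgeR adjusted p = 2.98e-09). It rested on 714 to 2322 counts per nkx1-1 RNAi library and 34 to 44 per control library. Whether this contig matches the sequence of the fed double-stranded RNA is not known here. Whether reads of that RNA entered its counts was not tested. The 9 next largest rises within these limits were far smaller, from 0.97 to 1.76 on the log2 scale.

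**Figure D3:**
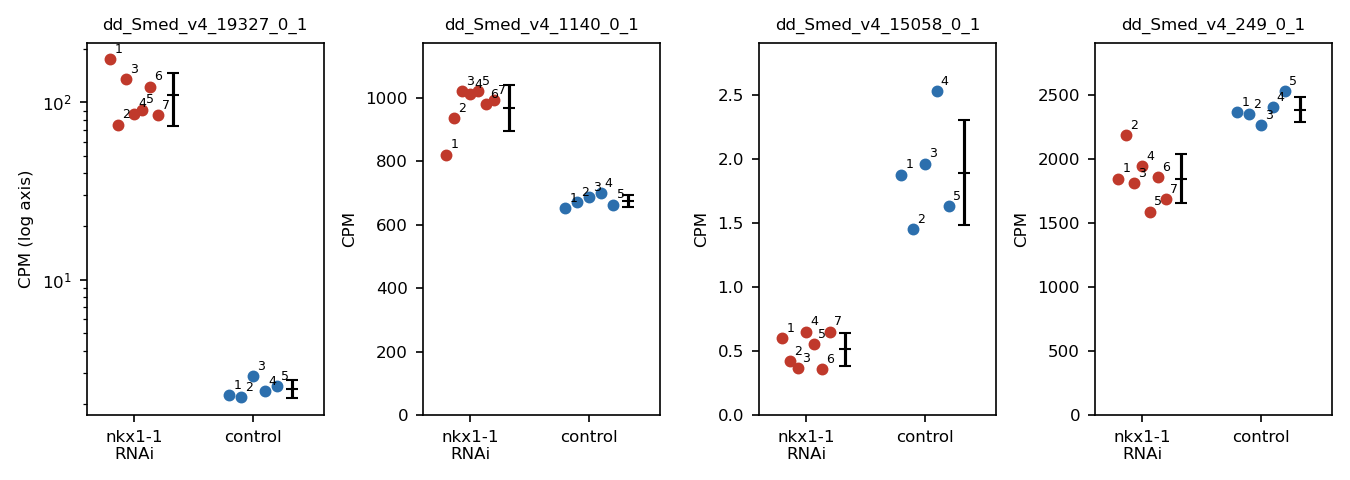
CPM of the 4 named contigs in each animal, nkx1-1 RNAi in red (n = 7) and control in blue (n = 5), with replicate numbers, and mean ± SD in black. The panel of dd_Smed_v4_19327_0_1 has a log axis and the others a linear axis from 0. In all 4 panels the groups do not overlap; nkx1-1 RNAi replicate 1 is the highest of its group for dd_Smed_v4_19327_0_1 and the lowest for dd_Smed_v4_1140_0_1.

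The contig with the most counts among those that rose was dd_Smed_v4_1140_0_1. Its levels were 821 to 1022 CPM in nkx1-1 RNAi animals, with a median of 993 CPM, and 652, 673, 687, 700 and 663 CPM in controls. The groups did not overlap, and replicate 1 was the nkx1-1 RNAi animal nearest to the controls. Mean levels were 969 ± 71.8 CPM after nkx1-1 RNAi (SD, n = 7) and 675 ± 18.8 CPM in controls (SD, n = 5), a 1.44-fold increase (log2 fold change 0.52 ± 0.06 SE; edgeR adjusted p = 0.000587). Without the pair it was 0.57 ± 0.05 (SE; edgeR adjusted p = 4.09e-05). The 9 next contigs by counts among those that rose changed by 0.24 to 0.93 on the log2 scale.

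The largest fall within these limits was that of dd_Smed_v4_15058_0_1, a contig with few counts. It had 0.356 to 0.652 CPM in nkx1-1 RNAi animals, with a median of 0.552 CPM, and 1.88, 1.45, 1.96, 2.53 and 1.63 CPM in controls. All nkx1-1 RNAi animals lay below all controls, on 4 to 12 counts per nkx1-1 RNAi library and 22 to 44 per control library. The mean was 0.514 ± 0.131 CPM after nkx1-1 RNAi (SD, n = 7) and 1.89 ± 0.411 CPM in controls (SD, n = 5), and the log2 fold change was −1.85 ± 0.20 (SE; edgeR adjusted p = 0.000270). Without the pair it was −1.87 ± 0.24 (SE; edgeR adjusted p = 0.000627). With all 12 libraries DESeq2 gave −1.87 ± 0.28 (SE), so the edgeR SE may be too small at so few counts. Of the contigs called lower in both fits, 2 fell further but lay outside the limits. One had a mean under 1 CPM over the 12 libraries, with 0.263 ± 0.123 CPM after nkx1-1 RNAi (SD, n = 7) and 1.54 ± 0.500 CPM in controls (SD, n = 5; log2 fold change −2.59 ± 0.30 SE, edgeR adjusted p = 0.000397). In the other the groups overlapped, with 1.57 ± 1.70 CPM after nkx1-1 RNAi (SD, n = 7) and 6.04 ± 2.92 CPM in controls (SD, n = 5; log2 fold change −2.07 ± 0.48 SE, edgeR adjusted p = 0.0280). The 9 next largest falls within the limits lay between −1.05 and −0.72 on the log2 scale.

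Among contigs that fell, dd_Smed_v4_249_0_1 had the most counts. It had 1590 to 2188 CPM in nkx1-1 RNAi animals, with a median of 1849 CPM, and 2370, 2354, 2269, 2409 and 2533 CPM in controls. The groups did not overlap, though nkx1-1 RNAi replicate 2 came close to control replicate 3. Its mean was 1848 ± 191 CPM after nkx1-1 RNAi (SD, n = 7) and 2387 ± 96.3 CPM in controls (SD, n = 5), which leaves 0.776 of the control level (log2 fold change −0.37 ± 0.07 SE; edgeR adjusted p = 0.0139). Without the pair it was −0.38 ± 0.08 (SE; edgeR adjusted p = 0.0141). With only replicates 1 to 5 of both groups it was −0.35 and no longer called (edgeR adjusted p = 0.0611). The fold changes in the authors' deposited table were 45.1 for dd_Smed_v4_19327_0_1, 1.43 for dd_Smed_v4_1140_0_1, 0.271 for dd_Smed_v4_15058_0_1 and 0.773 for dd_Smed_v4_249_0_1. They come from the same libraries.

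The nkx1-1 RNAi animals were not set apart from the controls evenly at the called contigs. Whether this lies in the response or in the libraries was not tested. Among the 262 contigs called higher in both fits, all 7 nkx1-1 RNAi animals lay above every control at 98, and exactly 6 did at 144. In 120 of these 144 the exception was replicate 1. That animal lay above every control at 47.7% of the 262 contigs, and each of the others at 91.2% to 100%. Among the 251 contigs called lower in both fits, all 7 lay below every control at 167 and exactly 6 at 65. Replicate 1 was the exception at 19 of these 65 and replicate 2 at 28, and the 7 animals lay below every control at 82.9% to 98.8% of the 251. Among all tested contigs 2.82% had groups that did not overlap, 182 with the nkx1-1 RNAi animals above (1.1%) and 286 with them below (1.72%). For exactly 6 animals and for single animals the shares over all tested contigs were not taken, so those counts have no such base beside them. The same values had called these contigs, so these counts describe them and no more. The fit without the pair, which also had to call them, did not hold replicate 1.

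To see each animal on contigs chosen without it, contigs were called again with that animal left out. It was then asked at which of them the left-out animal lay nearer to the mean of its own group than to that of the other. These shares are descriptions with no test, since contigs are not replicates. Left out in turn, nkx1-1 RNAi replicates 3 to 7 lay on the RNAi side at 86.6% to 97.8% of the contigs called higher without them and at 78.6% to 93.4% of those called lower. Over all tested contigs, called or not, the shares of these 5 animals were 60.8% to 68.2%. Each animal has its own list of contigs. The lists of these 5 held 134 to 205 higher and 182 to 261 lower contigs. Those of replicates 1 and 2 were longer, so shares of different animals rest on unlike contigs.

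Replicates 1 and 2 behaved otherwise. Without replicate 1, 519 contigs were called higher (3.13% of those tested) and 428 lower (2.58%). Replicate 1 lay on the RNAi side at only 27.0% of the higher ones but at 66.6% of the lower ones, against 50.5% of all tested contigs. Its median distance from the mean of the controls was 0.09 on the log2 scale over these higher contigs, where the fit of the other animals gave a median log2 fold change of 0.47. Over the lower contigs its distance was −0.23 against −0.36 in the fit. Replicate 2, the library with the fewest counts, lay on the RNAi side at 70.2% of the 319 contigs called higher without it (1.93% of those tested) and at 49.3% of the 436 called lower (2.64%), against 49.9% of all tested contigs. Whether its depth plays a part in this was not tested. The same replicate 1 had the highest level of dd_Smed_v4_19327_0_1.

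**Figure D4:**
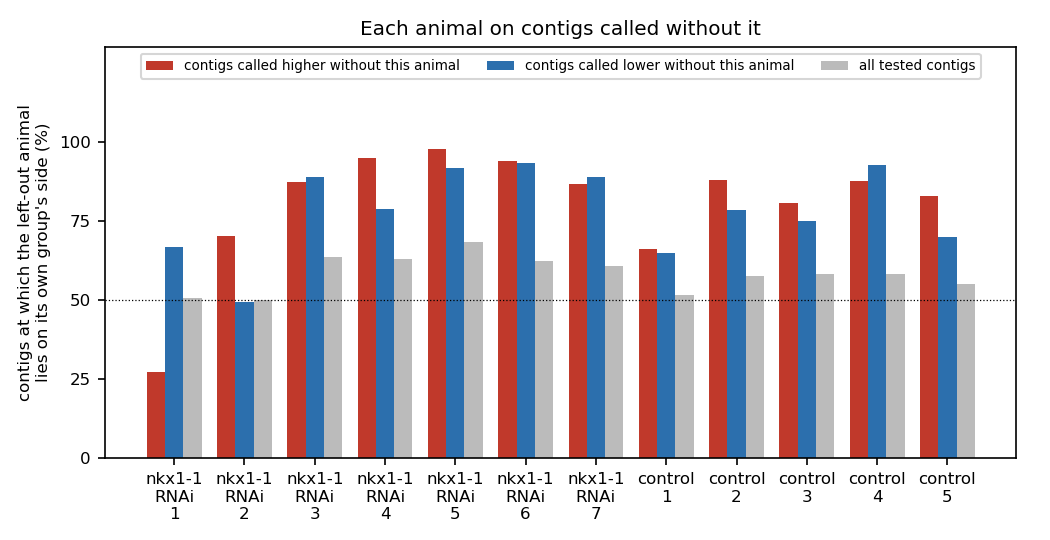
For each animal, the percentage of contigs at which it lies on its own group's side of the midpoint between the group means, for contigs called higher (red) or lower (blue) by a fit without that animal and for all tested contigs (grey). The dotted line marks 50%. Replicate 1 of the nkx1-1 RNAi group drops to 27.0% for higher contigs, while replicates 3 to 7 stay at 78.6% or above for higher and lower contigs.

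Control animals, left out in the same way, lay on the control side at 66.2% to 87.9% of the contigs called higher without them and at 64.7% to 92.7% of those called lower. Over all tested contigs their shares were 51.5% to 58.1%. Control replicate 3 was within this range, at 80.6% of higher contigs and 75.0% of lower ones, though it stood apart in its profile. Control replicate 1 had the lowest shares of the 5, 66.2% and 64.7%. When the pair that stood apart was kept out of every calling fit, replicate 1 of the nkx1-1 RNAi group lay on the RNAi side at 25.0% of higher and 74.7% of lower contigs. The shares of nkx1-1 RNAi replicates 3 to 7 were then 72.8% to 93.6% for higher and 76.1% to 91.5% for lower contigs. Replicate 2 was then at 69.1% of higher contigs but only 39.0% of lower ones, against 46.9% of all tested contigs.

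The number of called contigs depended on which animals entered the fit. Leaving out nkx1-1 RNAi replicate 1 gave the most, 947 (5.72% of those tested), and leaving out control replicate 4 the fewest, 214 (1.28%). The count was also more than 1.5 times below that of all 12 libraries without nkx1-1 RNAi replicate 4 (412, 2.5%), 5 (352, 2.13%), 6 (332, 2.01%) or 7 (391, 2.37%). The same held without control replicate 2 (325, 1.94%) or 5 (391, 2.33%). It stayed within 1.5 times without nkx1-1 RNAi replicate 2 (755, 4.56%) or 3 (466, 2.82%) and without control replicate 1 (578, 3.45%) or 3 (448, 2.67%). Of the 643 contigs called with all 12 libraries, 610 were also called without nkx1-1 RNAi replicate 1 and 210 without control replicate 4. In all 12 of these fits 178 of the 643 were called in the same direction (1.07% of tested contigs), 84 higher and 94 lower. Their median log2 fold changes, with all 12 libraries, were 0.61 for the 84 and −0.45 for the 94, and the 4 named contigs were among them.

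**Figure D5:**
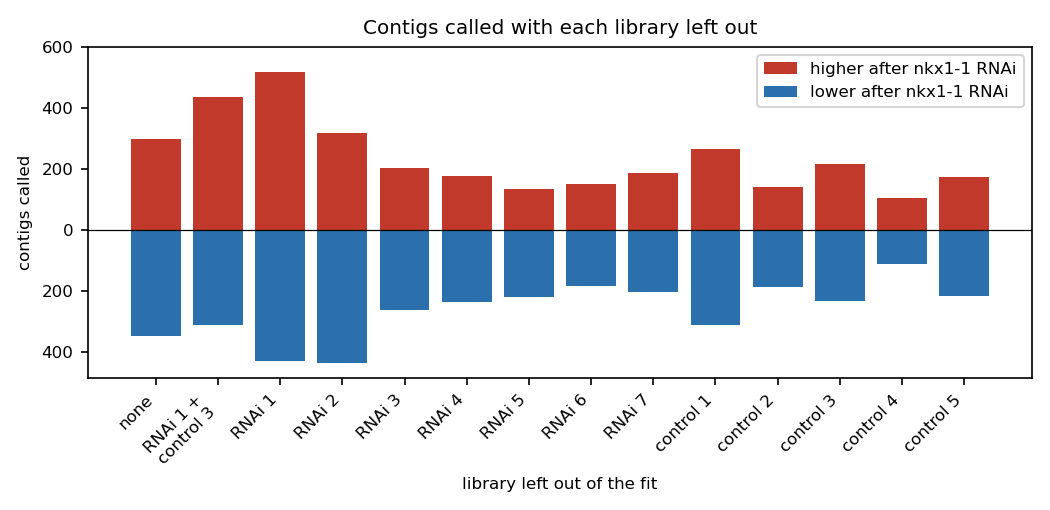
Contigs called higher (red, upward) and lower (blue, downward) after nkx1-1 RNAi with all libraries, without the pair that stood apart, and without each library in turn. The tallest red bar after leaving out a library is that without nkx1-1 RNAi replicate 1 (519 higher), and the shortest bars are those without control replicate 4 (104 higher and 110 lower).

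At an adjusted p under 0.05 the authors' deposited table holds 430 contigs, 1.65% of the 26083 with a value, of which 200 were higher and 230 lower. Of the 262 contigs called higher in both fits it holds 170 among its 200, and of the 251 called lower 180 among its 230. It was made from the same libraries, so this overlap is not independent evidence.

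The named contigs were set beside the myoD RNAi animals, each RNAi group read against its own controls, with levels scaled over all 24 libraries. The rise of dd_Smed_v4_19327_0_1 had no counterpart there: it had 2.64 ± 0.828 CPM after myoD RNAi and 2.64 ± 0.480 CPM in the 10-feeding controls (SD, n = 6 each). The nkx1-1 effect exceeded the myoD effect by 5.47 ± 0.39 on the log2 scale (SE; edgeR adjusted p = 5.67e-10), in a contrast over 24 libraries that called 73 of 17159 contigs (0.425%). Without the pair that stood apart, where 104 of 17306 contigs were called (0.601%), it was 5.37 (edgeR adjusted p = 1.18e-10). For dd_Smed_v4_15058_0_1 the levels were 2.13 ± 0.806 CPM after myoD RNAi and 2.37 ± 0.589 CPM in its controls (SD, n = 6 each), and the nkx1-1 effect was the more negative by −1.71 ± 0.34 on the log2 scale (SE; edgeR adjusted p = 0.0153). Without the pair this was −1.75 (edgeR adjusted p = 0.0260). Both contigs were named for the size of their nkx1-1 effect, which is a part of these differences and makes a call more likely.

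The contigs with many counts moved alike in direction. After myoD RNAi dd_Smed_v4_1140_0_1 had 832 ± 30.7 CPM against 630 ± 20.6 CPM in its controls (SD, n = 6 each), so its log2 fold change there was 0.42 ± 0.04 (SE; edgeR adjusted p = 4.75e-07). For dd_Smed_v4_249_0_1 the levels were 2078 ± 151 CPM after myoD RNAi and 2497 ± 114 CPM in its controls (SD, n = 6 each), so its log2 fold change there was −0.25 ± 0.05 (SE; edgeR adjusted p = 0.00191). The differences of effects were 0.12 ± 0.07 (SE; edgeR adjusted p = 0.490) and −0.11 ± 0.09 (SE; edgeR adjusted p = 0.623), which does not show that the effects were equal. Number of feedings, weeks and anything else that differed between the schedules cannot be told apart from the targeted gene in these differences.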

How the data were processed

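Sequencing libraries came from a strand-specific mRNA kit (per the labels' protocols). The tools named by the submitters' processing notes are Bowtie 1.1.1, cutadapt 1.8, CASAVA, DESeq and SAMtools. Their roles, settings and the strand used in counting are not given in the labels or files used here. The authors deposited whole-number counts per contig without normalization. The authors' deposited table of the comparison gives, per the file headers, size-factor-normalised means (a signal value), their ratio or fold change, its log2, and a p-value with its adjusted p-value.

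Counts were filtered (filterByExpr), scaled (TMM) and tested with edgeR 4.0.16 (quasi-likelihood F test) in R 4.3.3, on 12 libraries. P-values were adjusted by Benjamini-Hochberg over all contigs tested, and a contig under 0.05 is called. SE is the log2 fold change over the square root of F, and 95% intervals use 10 degrees of freedom. For contigs with few counts this SE can be too small and the interval too narrow. The difference from the myoD effect was fitted on 24 libraries. Log2 CPM used a prior count of 2. DESeq2 1.42.0 and limma 3.58.1 served as alternatives. Library pairs within groups differed beyond sampling noise (chi-square per degree of freedom 6.17 to 103).

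Named contigs had an adjusted p under 0.05 with and without the pair of libraries that stood apart, the same sign and a mean of at least 1 CPM. In each direction the contig with the largest change among those with no overlap between groups and the one with the highest mean CPM were taken. Members, rules and alternatives were chosen with earlier results of these data known.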

Additional observations from a re-analysis of the deposited data

Results flagged for a closer look

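Within each group a sample was singled out when the gap to its neighbour took an unusually large part of the group's range. This was applied to 24 sets of values and singled out 4, all of them in nkx1-1 RNAi replicate 1. Chance singles out about 1 in 20 independent sets, but these sets share contigs and dd_Smed_v4_4_1_1 entered them for its unusual values, so the 4 cannot be set against that rate. That contig took 6.79% of the counts of replicate 1 and at most 0.391% in the other nkx1-1 RNAi animals. Replicate 1 had 821 CPM of dd_Smed_v4_1140_0_1, against 936 to 1022 CPM in the others. The contigs called higher in both fits summed to 12064 CPM in replicate 1, against 13816 to 14844 CPM in the others. Left out of the fit, replicate 1 lay on the RNAi side at 27.0% of the contigs called higher, against 70.2% to 97.8% for the others. Apart from dd_Smed_v4_4_1_1, these values rest on contigs that a fit without replicate 1 had to call. Such a fit can favour contigs at which the remaining animals are alike, which can widen the gap of replicate 1.

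Of the named contigs, 2 differed between the nkx1-1 and myoD effects in the test of that difference, dd_Smed_v4_19327_0_1 by 5.47 and dd_Smed_v4_15058_0_1 by −1.71 on the log2 scale.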

How the results depend on the processing

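The count of 643 called contigs became 1042 with DESeq2, 976 with limma voom and quality weights, 1849 with the joint fit of 24 libraries, 1397 at an adjusted p under 0.1 and 52 with a 2-fold minimum. Leaving out each library gave 214 to 947. It was 641 with RLE size factors, 572 without the low-count filter, 668 with robust dispersions and 748 without the pair that stood apart. Replicates 1 to 5 of both groups gave 133 contigs, and 12 with the replicate number as a block. No sign was seen that the numbers pair the animals, though 5 pairs cannot exclude it. The correlation of deviations was over 0.1 in 0 of 5 pairs (−0.15 to 0.02), and no animal matched its own number best. Under the block dd_Smed_v4_1140_0_1 (0.50; edgeR adjusted p = 0.0586) and dd_Smed_v4_249_0_1 (−0.36; edgeR adjusted p = 0.160) were not called. The contigs named for the size of their change, dd_Smed_v4_19327_0_1 and dd_Smed_v4_15058_0_1, were called in all 21 alternatives, at 5.35 to 5.57 and −1.93 to −1.71. The 73 contigs with different nkx1-1 and myoD effects became 157 with DESeq2, 48 to 136 with a library left out, 104 without the pair that stood apart, 62 without the filter and 76 with RLE size factors; the calls on the 4 named contigs' differences were the same in all 16 alternatives. The median share of a left-out animal on its own side was 87.7% for nkx1-1 RNAi and 77.7% for control animals. With the pair kept out of every calling fit, but still counted among the left-out animals, the medians were 83.4% and 84.0%. They were 87.7% and 78.3% with RLE size factors.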
